A study of Caenorhabditis elegans with 2 samples.

Results

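The tRNA genes on the X chromosome of the nematode Caenorhabditis elegans were examined for binding of ATTF-6, a protein with AT-hook motifs. The annotation (Ensembl release 115 of the assembly WBcel235) holds 276 genes of biotype tRNA on X. They are 45.1% of the 612 tRNA genes on the 6 chromosomes, whereas X holds 12.8% of all 46890 annotated genes. Every gene of this biotype on X was taken, whatever its signal. The set itself was chosen with earlier results of these data known. A gene was called bound if a window of 500 bp to either side of its start held the summit of a region in the joint conservative list of the 2 replicates. A summit is the deposited position of the strongest signal in a region.

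The study mapped ATTF-6 by chromatin immunoprecipitation and sequencing (ChIP-seq) in whole young adult worms of strain RW12231, aged 64 hours. The worms carried attf-6::TY1::EGFP::3xFLAG, a CRISPR insertion that tags the attf-6 gene, and had been synchronised by bleaching and starvation as L1 larvae. Chromatin was sonicated to fragments of 200 to 800 bp, and an antibody against GFP was used for the precipitation. The 2 samples are biological replicates 1 and 2 of a single group, so no condition could be compared with another and no test across samples was possible. A control experiment named in the labels was not analysed here, so signal in untagged or input chromatin could not be checked. The sources used here do not say whether the deposited signals were set against it. All tissues of the worm were mixed, and the cells in which the protein sat at a gene cannot be read from these lists.

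Transfer RNA genes are transcribed by RNA polymerase III. Their promoters lie inside the gene: TFIIIC binds the A box and the B box and places TFIIIB just upstream of the start, and the polymerase stops at a run of T residues past the gene end. AT-hook proteins bind the minor groove of DNA rich in A and T.

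Windows around 3 bound genes and 1 gene without a region are printed to show the flanks that the results below turn on. Each sequence is on WBcel235 (ce11) and runs 5′ to 3′ on the gene's own strand, from 100 bases before the start, with the gene in capitals. F46G11.t1 (chrX:5801372-5801671, plus strand) and F23D12.t2 (chrX:14437745-14438044, minus strand) are identical copies of a proline tRNA gene in different flanks. F46G11.t1 was bound and F23D12.t2 had no region in the joint ranked list or in either replicate's own. F15G9.t1 (chrX:9743489-9743788, plus strand; alanine) and C16B8.t2 (chrX:3969996-3970295, plus strand; proline) lay at the strongest X tRNA summits after that of the M02F4 genes.
F46G11.t1: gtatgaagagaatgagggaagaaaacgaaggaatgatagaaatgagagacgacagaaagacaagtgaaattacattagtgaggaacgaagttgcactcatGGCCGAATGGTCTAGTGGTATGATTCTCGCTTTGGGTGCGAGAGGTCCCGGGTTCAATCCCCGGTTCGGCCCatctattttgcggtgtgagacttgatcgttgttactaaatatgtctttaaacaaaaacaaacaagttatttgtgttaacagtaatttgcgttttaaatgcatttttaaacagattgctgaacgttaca
F23D12.t2: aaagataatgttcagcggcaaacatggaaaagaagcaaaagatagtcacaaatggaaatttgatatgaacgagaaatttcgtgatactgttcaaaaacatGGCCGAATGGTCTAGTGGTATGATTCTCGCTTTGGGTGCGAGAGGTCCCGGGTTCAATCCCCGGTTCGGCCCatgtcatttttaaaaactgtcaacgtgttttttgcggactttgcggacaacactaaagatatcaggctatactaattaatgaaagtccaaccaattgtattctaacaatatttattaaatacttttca
F15G9.t1: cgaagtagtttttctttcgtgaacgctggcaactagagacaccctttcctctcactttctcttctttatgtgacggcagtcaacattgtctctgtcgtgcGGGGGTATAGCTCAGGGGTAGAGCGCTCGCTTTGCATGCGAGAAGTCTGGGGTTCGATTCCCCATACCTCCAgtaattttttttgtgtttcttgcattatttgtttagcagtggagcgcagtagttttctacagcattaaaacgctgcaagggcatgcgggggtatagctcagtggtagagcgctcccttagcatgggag
C16B8.t2: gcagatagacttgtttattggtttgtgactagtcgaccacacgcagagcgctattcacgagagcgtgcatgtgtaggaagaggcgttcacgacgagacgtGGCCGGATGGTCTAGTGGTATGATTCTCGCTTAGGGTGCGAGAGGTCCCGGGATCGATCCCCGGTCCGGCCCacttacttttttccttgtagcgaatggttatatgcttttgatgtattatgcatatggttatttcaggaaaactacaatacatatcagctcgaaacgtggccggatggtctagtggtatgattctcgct

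The upstream 100 bases held 62% A+T in F46G11.t1, 68% in F23D12.t2, 54% in F15G9.t1 and 49% in C16B8.t2. Close neighbours differed from these: it was 57% in F23D12.t1, a further copy of the same proline gene that also had no region, and 66% in C16B8.t3, which shares the summit of C16B8.t2. At the strongest X tRNA summit it was 60% in M02F4.t1 and 61% in M02F4.t2. The windows of F15G9.t1 and C16B8.t2 end inside a second tRNA gene, which is left in lower case. The next sequences are whole tRNA genes that occur as identical copies on X, with the anticodon in capitals and, where present, the B box core (GTTCGANNC) in capitals too. Copies of each were found both with and without a summit, as in all 20 groups of at least 5 identical copies. The genes printed are a choice among those groups. Some larger groups, such as glutamic acid CTC with 12 copies and glycine TCC with 11, are not printed. The proline and glutamine genes hold no exact match to this core.
Pro-TGG, 13 copies on X: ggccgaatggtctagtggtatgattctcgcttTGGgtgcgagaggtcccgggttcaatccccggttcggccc
Arg-ACG, 10 copies on X: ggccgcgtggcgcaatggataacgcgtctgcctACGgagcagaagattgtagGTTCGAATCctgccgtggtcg
Leu-AAG, 9 copies on X: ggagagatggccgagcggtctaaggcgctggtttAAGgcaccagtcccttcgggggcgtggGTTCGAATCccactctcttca
Gln-TTG, 9 copies on X: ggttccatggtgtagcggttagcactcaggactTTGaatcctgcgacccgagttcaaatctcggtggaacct
His-GTG, 8 copies on X: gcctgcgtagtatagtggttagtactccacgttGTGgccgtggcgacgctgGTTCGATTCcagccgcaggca
Thr-AGT, 7 copies on X: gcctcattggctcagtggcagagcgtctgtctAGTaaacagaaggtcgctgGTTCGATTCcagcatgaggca

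ATTF-6 summits lay at many tRNA genes of X and at few other genes of this chromosome. Of the 276 X tRNA genes, 115 held a conservative summit in their window, or 41.7% (95% Wilson interval 36.0 to 47.6). The same rule called 98 of the 5746 other X genes, or 1.71%. When only genes more than 1000 bp from any tRNA start were kept, 16 of 5470 other X genes were called, or 0.293%. Over all 19973 protein-coding genes of the genome the share was 3.35%. These intervals cover counting of genes only, neighbouring genes can share a summit, and the depth of the libraries is unknown.

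The tRNA genes of the autosomes were the most similar set. There the conservative list called 126 of 336 genes, or 37.5% (32.5 to 42.8). Outside the part of chromosome IV rich in piRNA genes on its right arm, it called 94 of 304, or 30.9% (26.0 to 36.3). The X value lay above both, its interval overlapped each of theirs, and the difference was not tested.

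Each replicate's own thresholded list called fewer genes. Replicate 1 called 58 X tRNA genes, or 21.0% (16.6 to 26.2), beside 26.8% of autosomal tRNA genes and 0.870% of other X genes. Replicate 2 called 41 X tRNA genes, or 14.9% (11.1 to 19.5), beside 21.1% and 0.505%. In both replicates X tRNA genes were thus called far more often than other X genes, while the order of X and all autosomal tRNA genes was the reverse of that in the joint list. Without the right arm region of IV, the autosomal shares were 19.1% in replicate 1 and 12.8% in replicate 2, each below the X share in the same list.

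The replicates named partly different genes. A summit of both own lists lay at 23 X tRNA genes, of replicate 1 alone at 35, of replicate 2 alone at 18, and of neither at 200. Of the 115 genes in the joint conservative list, 49 were called in replicate 1, 38 in replicate 2 and 51 in neither own list. A further 12 genes were called in an own list but not in the joint one. The joint call for those 51 genes therefore rests on the ranking of both replicates together, not on either replicate's own threshold.

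Seen from the summits, most of what ATTF-6 marked on X was a tRNA gene. Of 137 conservative summits on X, 95 lay in a tRNA window, or 69.3% (61.2 to 76.4). The own list of replicate 1 gave 69.2% of 65 X summits and that of replicate 2 gave 67.3% of 49. On the autosomes outside the right arm region of IV, 83 of 1199 summits lay in a tRNA window, or 6.92% (5.62 to 8.50).

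The summits sat in or beside the gene body. Relative to the nearest tRNA start, in the direction of transcription, the median X summit lay 28 bp downstream, with quartiles at 7 and 46.5 bp and a range from −164 to 186 bp. Within 50 bp of the start were 73 of the 95 summits and within 100 bp were 91. Inside the gene itself lay 67 summits, upstream 18 and downstream 10. The median gene with a summit was 72 bp long, so the middle of the distribution fell between start and end of the gene.

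**Figure D1:**
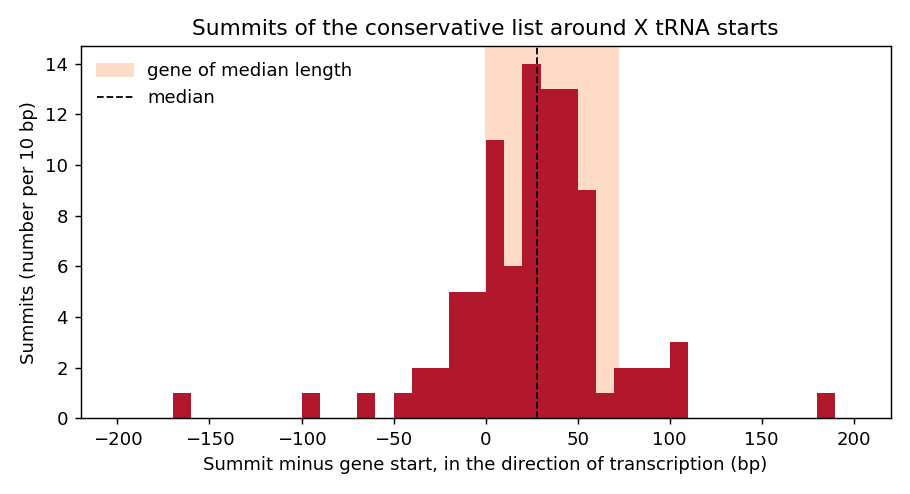
Position of the 95 conservative summits in X tRNA windows relative to the nearest tRNA start, in bp along the direction of transcription, in 10 bp bins. The shaded band is a gene of 72 bp and the dashed line is the median of 28 bp, and 67 of the summits lie inside their own gene.

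The same offset had a median of 19 bp in the own list of replicate 1 and 17 bp in that of replicate 2. Measured from the middle of the gene the median was −9 bp, since the reference point moves into the gene. At autosomal tRNA genes outside the right arm region of IV, the median was 12 bp with quartiles at −15 and 40.5 bp, and 48 of 83 summits lay inside the gene. Of the X regions, 94 of 95 were 324 bp wide, several times the length of a tRNA gene, so a shift of a few bp is finer than the regions themselves.

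The height of these summits was moderate. The deposited signal of a region has no stated scale between lists, so it is compared within a list only. Over the 95 X tRNA summits it had a median of 78.1 and ran from 6.47 to 181. The whole conservative list of 2134 summits had a median of 80.8 and a highest value of 3469, and the strongest X tRNA summit ranked 245. Above the median of the list stood 40 of 95 X tRNA summits (42.1%) and 51 of 83 autosomal ones (61.4%). The autosomal set had a median of 87.4 and a highest value of 307, and 5 of its 83 summits exceeded every X tRNA summit. The other 42 X summits had a median of 73.4 and a highest value of 634.

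The strongest summit lay between M02F4.t1, a glycine tRNA gene (chrX:3036164-3036235, plus strand), and M02F4.t2, a glutamic acid tRNA gene (chrX:3035976-3036047, minus strand). These genes point away from each other with starts 117 bp apart. The summit had a joint signal of 181, and the strongest region of that window had a signal of 106 in replicate 1 and 77.9 in replicate 2. Both replicates' own lists called it, and both ranked no X tRNA window higher.

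Next came F15G9.t1, an alanine tRNA gene, with a joint signal of 154, 90.1 in replicate 1 and 65.7 in replicate 2. The summit of C16B8.t2, a proline tRNA gene, had a joint signal of 127, with 69.1 in replicate 1 and 53.3 in replicate 2. At C53C7.t1, a serine tRNA gene, the joint signal was also 127, with 86.3 in replicate 1 and 46.0 in replicate 2. R01H5.t1, a threonine tRNA gene, had no other tRNA gene within 97376 bp and a joint signal of 126, with 67.0 in replicate 1 and 62.3 in replicate 2. So a strong summit was seen at a lone gene as well as at neighbouring pairs.

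Across the 20 strongest X tRNA summits the joint signal ran from 96.1 to 181. The replicate 1 signals ran from 38.2 to 106 and those of replicate 2 from 31.6 to 77.9. Replicate 1's own list held 15 of the 20, replicate 2's held 15 and both held 10. Of these summits 7 lay in the windows of more than 1 tRNA gene. The genes at the 20 summits carried 12 different amino acids, with lysine at 4 of them and glycine at 4.

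The weakest summits were side summits. The 3 with the lowest signals, of 6.47, 8.22 and 9.99, lay 199 to 211 bp from a summit with a signal of 61.2 to 78.3. Next were F02D10.t3, a leucine tRNA gene with a signal of 49.5, and F55G7.t2, a threonine tRNA gene with 54.4. Just outside the list stood T01B4.t4, a valine tRNA gene, whose strongest joint ranked region had a signal of 91.0 at a global irreproducible discovery rate (IDR) of 0.0186. The IDR measures how poorly a region's rank is repeated between replicates, and the conservative list holds regions at 0.01 or less. T01B4.t4 had a signal of 57.5 in replicate 1 and 22.8 in replicate 2. E03E2.t1, a serine tRNA gene with a joint signal of 72.4, missed the threshold at an IDR of 0.0103, with 25.6 in replicate 1 and 43.8 in replicate 2. Both genes had higher joint signals than some called genes.

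Genes without a summit were not without signal. The joint ranked list holds 79981 regions with no threshold on the IDR, with a median signal of 19.6. It placed a summit in 243 of the 276 X tRNA windows (88.0%) and in 50.8% of windows of other X genes far from a tRNA gene. The median of the strongest ranked signal was 78.4 at the 115 X tRNA genes with a summit, 40.4 at the 128 without one that had a region, and 23.1 at the 2780 of 5470 other X genes that had a region. In replicate 1 these medians, again over genes with a region, were 43.4, 25.4 and 15.4, and in replicate 2 they were 35.3, 21.2 and 14.9. With genes without a region counted as 0, the joint medians were 78.4, 34.8 and 4.19, and the median of the other X genes was 0 in each replicate. The order was thus the same in each replicate. However, X tRNA genes with and without a summit were divided by the joint list of these replicates, which largely sets their order.

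Of the 161 X tRNA genes without a summit, 29 had their strongest region at an IDR of 0.05 or less and 21 were in the other joint list. The strongest ranked signal exceeded that of the weakest called gene, 49.5, at 34 of them. No joint ranked region fell in 33 windows. Some of those 33 had a region in a single replicate: C16H3.t1 and C16H3.t2, a pair of valine tRNA genes, had a signal of 73.8 in replicate 1 and no region in replicate 2.

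**Figure D2:**
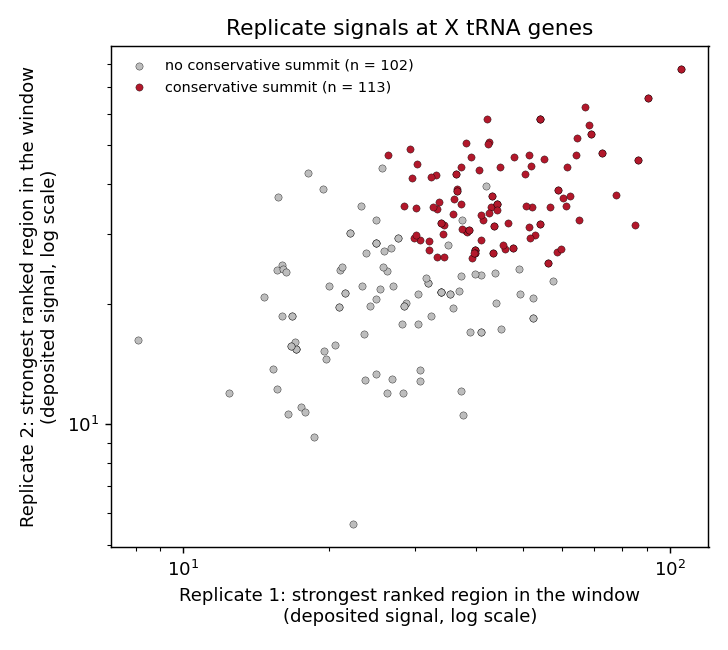
Strongest ranked signal in the window of each X tRNA gene in replicate 1 (x axis, log scale) and replicate 2 (y axis, log scale), for the 215 genes with a region in both. Red points are 113 genes with a conservative summit and grey points 102 without, and red points fill the upper right because the joint list selects regions high in both.

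Over those 215 genes the Spearman correlation between replicates was 0.58. It was 0.32 over the 113 genes with a summit and 0.14 over the 102 without. The joint list that divides these sets selects regions high in both replicates. Their correlations therefore cannot be set against that of all 215 genes. Points that share a region are not independent, so these are descriptions without a p-value. Levels were not compared between replicates.

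All 20 amino acid isotypes were found among the bound X tRNA genes. An isotype, the amino acid that a tRNA carries, was available from RefSeq for 273 of the 276 genes. The isotypes differed widely in their shares around the 41.7% of all X tRNA genes, with wide intervals since most have few genes. Alanine tRNA genes were bound at 10 of 13 (76.9%, interval 49.7 to 91.8), asparagine at 4 of 6, and glycine and proline at 12 of 20 each (60.0%, 38.7 to 78.1). Histidine tRNA genes were bound at 5 of 9, lysine at 9 of 18 and valine at 7 of 14. At the low end, arginine was bound at 6 of 27 (22.2%, 10.6 to 40.8), aspartic acid at 2 of 12, isoleucine at 2 of 13 and phenylalanine at 1 of 6. None of the 3 genes without an isotype was bound.

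**Figure D3:**
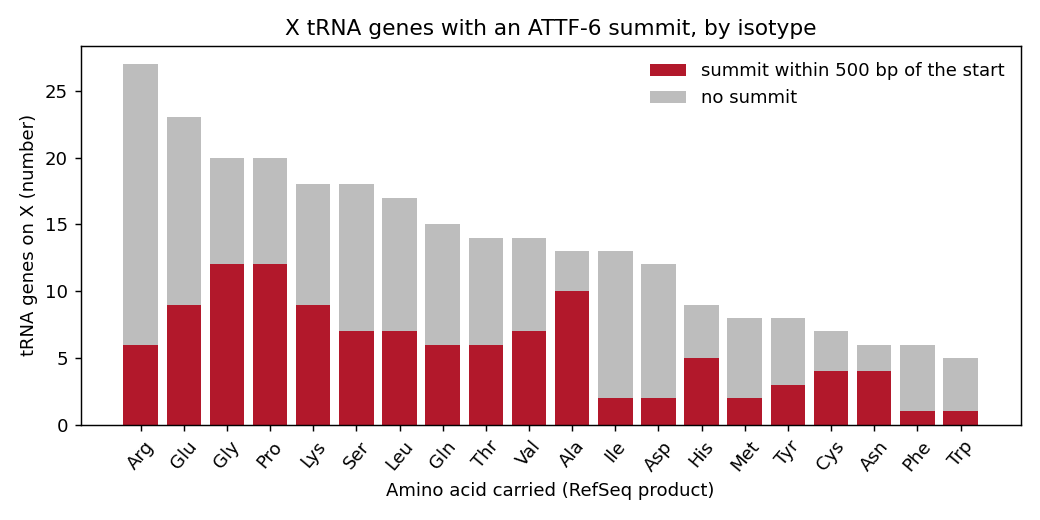
Number of X tRNA genes of each isotype with a conservative summit (red) and without (grey), in order of the number of genes. Alanine has 10 of 13 genes in red and arginine, the most numerous isotype, 6 of 27.

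The replicates' own lists kept this order in part. Over all X tRNA genes they called 21.0% in replicate 1 and 14.9% in replicate 2. For alanine, replicate 1 called 6 of 13 and replicate 2 called 5. For arginine, replicate 1 called 2 of 27 and replicate 2 called 0. For aspartic acid both called 0 of 12. Other isotypes moved. Valine was called at 7 of 14 in replicate 1, the highest share there, and at 2 in replicate 2. Asparagine was called at 1 of 6 and 2 of 6, cysteine at 0 of 7 and 1 of 7, and histidine at 0 of 9 in each.

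The autosomal genes of the same isotypes had another order. Alanine was bound at 3 of 16 autosomal genes outside the right arm region of IV, asparagine at 2 of 14, glycine at 8 of 29 and proline at 5 of 21. Arginine was bound at 6 of 16 there, aspartic acid at 6 of 13, isoleucine at 5 of 16 and histidine at 0 of 5. Lysine was bound at 13 of 27 and threonine at 10 of 20, beside 30.9% of all tRNA genes in this autosomal set. No difference between isotypes, or between X and the autosomes within one, was tested.

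An anticodon could be read from the sequence of 259 X genes. Within proline, AGG genes were bound at 3 of 3 and TGG genes at 8 of 15. Within arginine, ACG genes were bound at 5 of 13 and TCG genes at 0 of 6. Glycine genes with TCC were bound at 9 of 16 and those with GCC at 3 of 4. Isoleucine genes with AAT were bound at 1 of 11. On the autosomes outside the right arm region of IV, isoleucine genes with AAT were bound at 4 of 10 and arginine genes with TCG at 2 of 3. Alanine genes with AGC went the other way, with 6 of 9 on X and 1 of 9 on these autosomes, and glutamic acid genes with CTC had 5 of 15 and 3 of 9. The counts are small.

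The isotypes also differed in their highest signal. The signal of the strongest gene of each isotype ran from 181 at the glycine and glutamic acid pair M02F4.t1 and M02F4.t2 to 60.2 at sup-7. The latter is a tryptophan tRNA gene known for alleles that suppress amber stop codons. sup-7 had a signal of 26.7 in replicate 2 and no ranked region in replicate 1. The other tryptophan genes on X, sup-21, sup-28, sup-33 and rtw-5, had no conservative summit, with joint ranked signals of 28.4, 14.8, 28.5 and 50.9. Of these sup-21, sup-28 and sup-33 are also named for amber suppressor alleles.

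Identical genes were often bound at some copies and not at others. The 276 genes have 106 distinct sequences, of which 33 occur more than once on X, in 203 genes. In 27 of these 33 groups, with 188 genes, some copies had a summit and others had none. In 3 groups all copies had a summit and in 3 none had. All 20 groups of at least 5 copies were mixed. With 41.7% of all X tRNA genes bound, a mixed outcome in groups of this size is largely set by the number of copies. Genes whose sequence is unique in the genome were bound at 21 of 55 and those with a further exact copy somewhere in the genome at 94 of 221, shares on either side of that of all X tRNA genes.

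The proline TGG group has 13 copies, of which 7 had a summit. The strongest were F46G11.t1 and F46G11.t2, which share a summit with a joint signal of 82.0, 43.5 in replicate 1 and 31.4 in replicate 2. H06A10.t1 had no summit but a ranked signal of 69.2, near the called copies, whereas F23D12.t1 and F23D12.t2 had no joint region and none in either replicate. The glutamic acid CTC group had a summit at 5 of 12 copies, with joint ranked signals from 181 at M02F4.t2 to 19.6 at F52E10.t3, and no joint region at F52E10.t4. The glycine TCC group had one at 6 of 11, from 181 at M02F4.t1 to 16.6 at ZK154.t4, and no joint region at ZK154.t3. The aspartic acid GTC group had one at 2 of 10, C06G1.t2 with 61.2 and F38G1.t2 with 59.3. In this last group F59C12.t2 had a higher signal, 71.3, without a call, with 45.1 in replicate 1 and 17.3 in replicate 2.

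**Figure D4:**
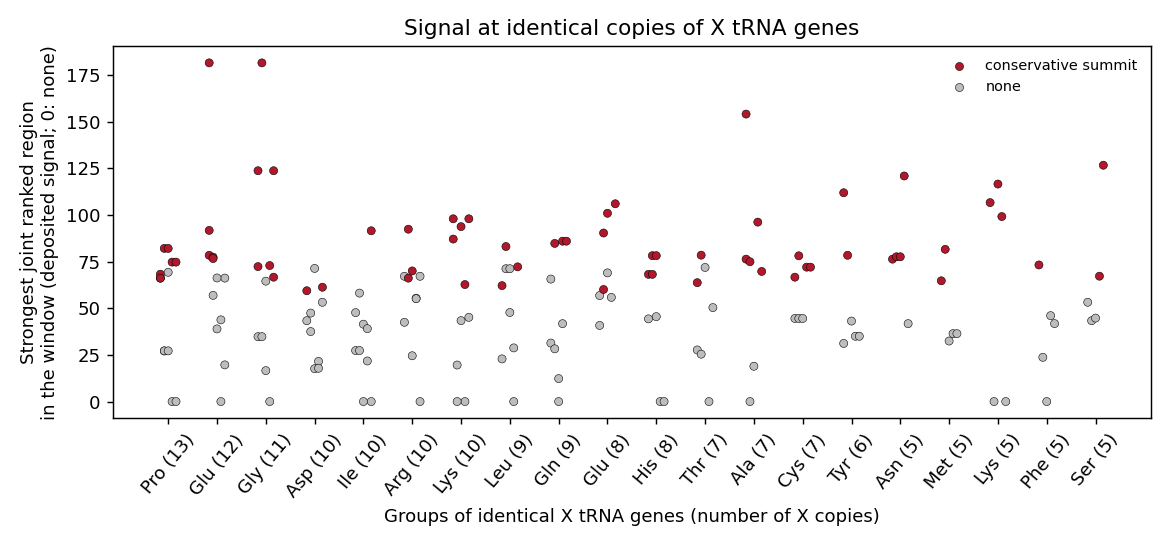
Strongest joint ranked signal in the window of every copy in the 20 groups of at least 5 identical X tRNA genes, with the number of copies in brackets and 0 where no region was listed. Red points have a conservative summit, and each group holds both red and grey points.

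The sources used here do not say how reads that fit more than 1 place were handled. The 100 bp upstream of the start occurred once in the genome at 270 of the 276 genes, of which 113 had a summit. At the 6 genes with a repeated upstream flank, 2 had one, and 3 of the others, F28H6.t3, F28H6.t6 and F52E10.t4, had no joint region. The part of read placement in these calls was not tested.

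The flanks of bound and unbound genes differed in A+T content. The 100 bp upstream of X tRNA genes with a summit held 58.3% A+T on average (SD 6.93, n = 115), against 62.2% (SD 7.70, n = 161) without one, so the difference of 3.85 percentage points was smaller than the spread among genes. The gene itself held 41.7% and 42.3%, and the 100 bp downstream 71.0% and 71.9%. Bound genes thus had less A+T in the upstream 100 bp, and values within 1 percentage point in the whole gene and downstream. Autosomal tRNA genes outside the right arm region of IV had 54.8% upstream with a summit (SD 8.43, n = 94) and 57.8% without (SD 8.35, n = 210). With the own list of replicate 1 the X difference was −1.71 percentage points and with that of replicate 2 it was −5.06, both lower with a summit.

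**Figure D5:**
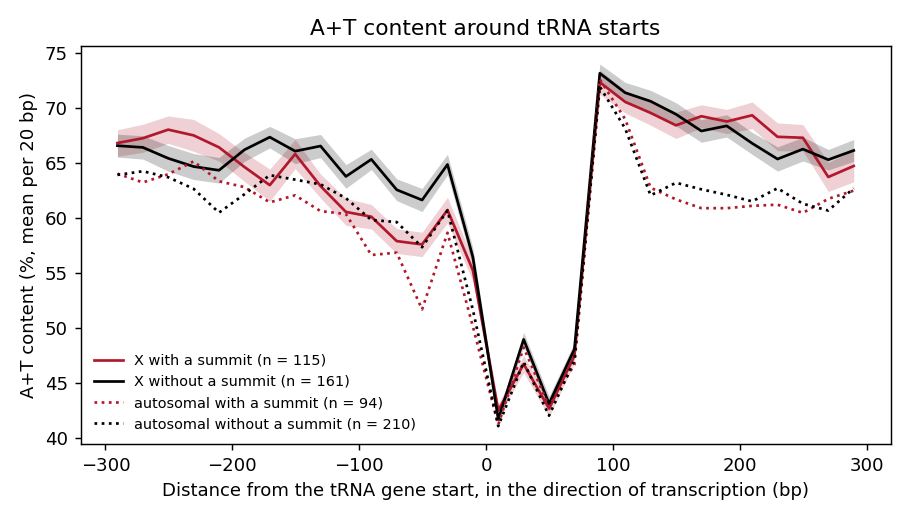
Mean A+T content in 20 bp steps around tRNA starts, in bp along the direction of transcription, on X (solid, bands of 1 SEM over genes) and on the autosomes outside the right arm region of IV (dotted), with a summit (red) and without (black). The solid lines part upstream of the start, with 57.6% and 61.6% at −60 to −41 bp, and beyond 200 bp upstream their order is reversed, with 68.0% and 65.4% at −260 to −241 bp.

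Inside the gene, X genes with and without a summit had 42.7% and 43.1% A+T at 40 to 59 bp from the start, and 46.7% and 49.0% at 20 to 39 bp.

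Divided by the A+T content of the 100 bp upstream, the X genes with 38 to 57% were bound at 55 of 97, or 56.7% (46.8 to 66.1). Those with 58 to 64% were bound at 41 of 91, or 45.1% (35.2 to 55.3). Those with 65 to 84% were bound at 19 of 88, or 21.6% (14.3 to 31.3). The first and last of these intervals do not overlap, but they cover counting of genes only and neighbouring genes can share a summit. The classes were set after the values were seen, and the difference between them was not tested. Replicate 1's own list called 26, 20 and 12 genes of these classes and replicate 2's called 25, 13 and 3, in the same order. The autosomal genes outside the right arm region of IV, divided at the same A+T values, were bound at 62 of 170 (36.5%, 29.6 to 43.9), 19 of 71 (26.8%, 17.9 to 38.1) and 13 of 63 (20.6%, 12.5 to 32.2), and there the first and last intervals overlap.

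The median of the strongest joint ranked signal, which needs no threshold, was 69.7, 62.1 and 40.4 over the same X classes, with 0 where no region was listed. Its Spearman correlation with upstream A+T was −0.26 over the 276 X genes and −0.19 over the 304 autosomal ones, a weak relation, given without a p-value since neighbours share regions.

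Comparing identical copies holds the gene sequence fixed. In 15 of the 20 mixed groups of at least 5 copies, the bound copies had the lower mean upstream A+T, and in 5 the higher. The median difference was −4.48 percentage points and the range −16.3 to 6.75. Among groups whose gene is printed above, threonine AGT had 52.5% at bound and 65.6% at unbound copies, arginine ACG had 53.3% and 63.0%, and proline TGG had 59.3% and 60.7%. Leucine AAG had 66.3% and 67.8%. Glutamine TTG went the other way, with 57.7% and 54.7%, and so did histidine GTG, with 65.25% and 64.25%. Base composition also affects how well fragments are amplified and sequenced, and without the control library its part in these differences was not tested.

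The internal promoter sequence was found at like shares in both sets. The B box core GTTCGANNC was found on the gene's own strand in 200 of 276 X tRNA genes (72.5%), against 2.94% of the first 72 bases of the 5746 other X genes. A search of both strands gave the same 200. It was present in 81 of 115 genes with a summit (70.4%) and in 119 of 161 without (73.9%). Genes with the core were bound at 40.5% (33.9 to 47.4) and genes without it at 44.7% (34.1 to 55.9), and those intervals overlap. An inexact match was not searched for, so genes without the core may still have a B box.

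A run of TTTT lay within 30 bp past the end of 273 of 276 X tRNA genes (98.9%). In the same span past the first 72 bases of other X genes it was found at 26.6%. The 3 X tRNA genes without it had no summit, a count from which the share allowed runs up to 56.1%.

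Neighbouring tRNA genes shared summits. On X, 31 pairs of nearest neighbours had starts at most 300 bp apart. Both genes had a summit in 15 pairs, neither in 16, and in no pair did only 1 have one. In each of the 15 pairs the same summit served both windows, which overlap widely at this distance, so that a shared outcome is largely set by the window. Of 21 pairs that point away from each other 12 had a summit, of 4 that point towards each other 1 had, and of 6 on the same strand 2 had. In total 23 of the 95 summits lay in the windows of several genes, at most 4.

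By distance to the nearest tRNA start the shares ran from 36.2% to 49.2%. Genes with a neighbour within 300 bp were bound at 30 of 61 (49.2%, 37.1 to 61.4). The shares were 17 of 47 beyond that to 600 bp, 29 of 71 from there to 5000 bp and 39 of 97 (40.2%, 31.0 to 50.2) farther away. With tRNA genes joined into runs where starts lay at most 2000 bp apart, genes that stood alone were bound at 52 of 125 (41.6%) and genes in runs of at least 4 at 16 of 45 (35.6%).

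Single runs differed from each other. The longest, 8 genes from F22F1.t9 to F22F1.t7 (chrX:8152546-8156707; serine, aspartic acid, methionine and isoleucine), had no summit, and the joint ranked signals in its windows ran from 43.3 to 53.2. The 5 genes from K01A12.t1 to K01A12.t3 (chrX:8623603-8624532; cysteine and arginine) had none either, with 24.5 to 44.5. In the run of 5 glutamine genes from H08J11.t5 to H08J11.t3 (chrX:9090627-9091628), 4 genes shared a single summit with a joint signal of 85.9, 37.3 to 44.2 in replicate 1 and 35.7 in replicate 2. The run of 6 histidine genes from F28H6.t2 to F28H6.t5 (chrX:14135045-14137010) had a summit at both ends and none in the middle. F28H6.t2 and F28H6.t7 had a joint signal of 78.1, F28H6.t4 and F28H6.t5 had 68.1, and the middle genes F28H6.t3 and F28H6.t6 had no joint region and none in either replicate. F28H6.t3, F28H6.t6, F28H6.t4 and F28H6.t7 are among the 6 X genes whose upstream 100 bp occurs more than once in the genome, and the part of read placement in their values was not tested. The run of 3 proline genes from C16B8.t1 to C16B8.t3 (chrX:3969556-3970336) was bound at each gene.

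Place on the chromosome and host genes also left the share near that of all X tRNA genes. With X divided into 3 stretches of equal length, 24 of 51 genes were bound on the left (47.1%), 43 of 107 in the middle (40.2%) and 48 of 118 on the right (40.7%). Genes inside a protein-coding gene were bound at 23 of 51 on its strand and at 18 of 45 on the opposite strand, and genes outside protein-coding genes at 74 of 180 (41.1%).

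Genes that make or use tRNAs were looked at with the same window. Of 22 genes of the RNA polymerase III machinery, 3 had a conservative summit, beside the 3.35% of all protein-coding genes. They were rpac-19, a subunit shared by RNA polymerases I and III, with a signal of 88.3, rpb-12, a small subunit shared by the nuclear RNA polymerases, with 136, and snpc-3.4, a gene of the SNAPc family that serves snRNA promoters, with 99.8. All 3 were called in both replicates' own lists. Of 21 aminoacyl-tRNA synthetase genes found out of 23 listed, 2 had a summit: fars-3, for phenylalanine, with 87.5 and called in replicate 2 only, and vars-1, for valine, with 82.9 and called in replicate 1 only. None of these genes is on X, and the nearest tRNA start to any of the 5 was 146287 bp away. The genes for the TFIIIC and TFIIIB subunits in the list, tftc-1, tftc-3, tftc-5, brf-1 and tbp-1, had no summit.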

How the data were processed

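The data are deposited ranked and thresholded region lists on ce11, 1 of each per replicate and 2 of each for both together, per the labels and the file headers. The deposited signal of a region was used as given. The global IDR is deposited as its −log10. The sources used here do not give the aligner, the peak caller or read totals, so depth is unknown and intervals cover counting error only. All 8 lists lay within the chromosome lengths of WBcel235, and coordinates of 612 of 612 tRNA genes were the same in Ensembl and RefSeq. Of 2267 ranked regions at an IDR of 0.01 or less, 133 are missing from the conservative list, 22 of them on X and 0 in an X tRNA window. Sequences, isotypes and gene symbols come from RefSeq. An anticodon was read from a loop of 7 bases closed by 5 base pairs, at least 4 of them formed, and had to decode the RefSeq isotype.

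Windows were counted with Python 3.11.15, pandas 2.3.3, numpy 2.4.6 and scipy 1.17.1, tested on simulated data. Named are the genes at the 20 strongest and 5 weakest X tRNA summits, the 5 strongest windows without one, the strongest gene of each isotype with at least 5 genes, and the 4 largest mixed groups of identical copies. From these the examples with values were picked after the values were seen, as were the runs, the tryptophan genes, the further groups of copies, the A+T classes and the genes without a region. Members and lists were chosen with earlier results of these data known. Alternatives were each replicate's own list, the other joint list, a stricter IDR, stronger summits, other windows, overlap in place of summits, and the middle of the gene.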

Additional observations from a re-analysis of the deposited data

How the results depend on the processing

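With the own list of a single replicate, shares of genes with a summit fell to 14.9 to 21.0% for X tRNA genes, 21.1 to 26.8% for autosomal tRNA genes and 0.505 to 0.870% for other X genes. The median offset was then 17 to 19 bp and the median signal 47.4 to 54.2, on the replicates' own scale. At a global IDR of 0.001 the shares were 13.8%, 24.1% and 0.522%, the offset 24.5 bp and the signal 100.5. With summits above the list's median signal the shares were 19.2%, 26.5% and 0.696%, and the signal 94.9. The order of X and all autosomal tRNA genes was thus reversed under each of these 4 settings. The other joint list gave an offset of 25 bp. Measured from the middle of the gene the offset was −9 bp, by construction. Windows of 200 and 1000 bp gave 1.22% and 2.51% of other X genes, and leaving out the right arm region of IV gave 30.9% of autosomal tRNA genes. The share of X summits in tRNA windows stayed between 67.3% and 71.4% in every setting run. A setting with all ranked regions at an IDR of 0.01 or less was not run for this share. It would add the 22 X regions missing from the conservative list, 0 of them in an X tRNA window, and so lower the share. The upstream A+T difference, whose 8 settings were chosen after seeing the data, ran from −5.06 to −1.71 percentage points, lower with a summit in each. No paired analysis was possible because there is only 1 group. Limits are the 2 replicates, the unknown depth, the control not analysed here, and windows that share summits, so that genes are not independent.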
